A study of Mus musculus with 12 samples.

Results

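The inhibitor of differentiation genes Id1, Id2, Id3 and Id4 were followed in MC3T3-E1 cells, a line of bone-forming precursor cells from mouse calvaria, given the cytokine TNFa, the bone morphogenetic protein BMP4, both or neither. The members were taken by gene symbol from the deposited expression table, where 4 of 25124 entries carry those names, and all 4 passed the minimum level for testing, which 11765 entries did. There were 12 poly(A) RNA-seq libraries in 4 groups of 3. TNFa+BMP4 cells received TNFa at 10 ng per mL and then BMP4 at 10 ng per mL, BMP4 cells received BMP4 alone, TNFa cells received TNFa alone, and untreated cells received neither. By the treatment protocol all cells were first held in 2.5% serum for 30 min, and TNFa was added 30 min before BMP4. BMP4 was left for 3 h in the groups that had it. A separate label field lists 3 h for TNFa too, so how long TNFa acted is uncertain. The same field lists 0 h for untreated cells. It does not show whether they were harvested with the treated cells, so time in culture may differ along with treatment. The titles of the TNFa libraries also carry the word p65, which the labels leave unexplained. The labels name no genetic change for the groups and do not say whether replicates were separate cultures of the line, so the p-values measure the spread between these libraries, which may be technical. Replicate 1 of each group forms batch 1, and replicates 2 and 3 form batch 2.

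Id proteins are helix-loop-helix proteins without a DNA-binding region. They pair with the E proteins (Tcf3, Tcf4 and Tcf12 in the mouse), which otherwise pair with tissue-specific bHLH factors and bind E-boxes, and so keep them off DNA. BMPs act through receptors that phosphorylate Smad1, Smad5 and Smad9, which enter the nucleus with Smad4, and Id1, Id2 and Id3 are textbook immediate targets of that pathway in osteoblast precursors. TNFa acts mainly through NF-kB and MAP kinases and is known to oppose osteoblast differentiation.

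Library totals, in units of 1e+06 tags, lay between 13.7 and 15.5, apart from 20.6 in TNFa+BMP4 replicate 2. Of 9 osteoblast-lineage markers 6 reached the minimum level, with Runx2 at a mean log2 value of 10.31, while the osteoblast differentiation markers Alpl, Bglap and Ibsp stood at 0.35, -0.03 and -1.23. Of 7 leukocyte markers 2 reached it, Lyz2 at 4.71 and Cd68 at 4.49, with Ptprc at -1.97 and Adgre1 and Cd3e listed at 0, and their summed level (log2) ran from 5.79 to 5.95 in TNFa+BMP4, 5.74 to 5.94 in BMP4, 5.81 to 5.95 in TNFa and 5.81 to 5.93 in untreated libraries. Of 3 cartilage markers Sox9 and Col2a1 were at 12.09 and 14.95 and Acan was listed at 0. In a model with a batch term 7541 of the tested genes differed between the batches, all 4 Id genes among them. Batch 1 minus batch 2 was -0.21 ± 0.06 for Id1, -0.36 ± 0.04 for Id2, -0.66 ± 0.05 for Id3 and 0.28 ± 0.05 for Id4 (log2, ± SE). Limma effects below are therefore adjusted for batch unless stated, and within-batch differences are printed beside some of the Id effects. Group levels, shares and ratios are not adjusted for batch.

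BMP4 raised Id1, Id2 and Id3 and left no called change in Id4. Values below are log2 on the deposited scale, given for replicates 1, 2 and 3. Id1, on chromosome 2 (NM_001369018, mm10, plus strand, 152736251 to 152737410), had 9.54, 9.81 and 9.77 in BMP4 libraries, against 8.02, 7.94 and 8.20 in untreated libraries. Every BMP4 library lay above every untreated one. Id2, on chromosome 12 (NM_010496, minus strand, 25093799 to 25096092), had 10.14, 10.54 and 10.48 in BMP4 libraries, against 8.78, 9.06 and 9.11 in untreated libraries. Id3, on chromosome 4 (NM_008321, plus strand, 136143822 to 136145392), had 11.98, 12.47 and 12.47 in BMP4 libraries, against 9.96, 10.59 and 10.84 in untreated libraries. For these 2 genes as well the groups did not overlap, and the batch 1 library was the lowest of each group. Id4, on chromosome 13 (NM_031166, plus strand, 48261116 to 48266028), had 13.46, 13.32 and 13.37 in BMP4 libraries, against 13.83, 13.38 and 13.30 in untreated libraries. The Id4 groups overlapped, and untreated replicate 1 stood above the other untreated libraries. GENCODE places 2 genes antisense to Id4, A330033J07Rik and Gm49291; the sources do not say whether counting used strand, so reads of Id4 and of these genes may not be told apart. A330033J07Rik had a BMP4 minus untreated difference of -0.16 (limma adjusted p = 0.254), and Gm49291 was not tested.

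The fitted BMP4 effects, from limma with Benjamini-Hochberg adjustment over all 11765 tested genes and 3 libraries per group, were 1.66 ± 0.08 for Id1 (log2 ± SE, adjusted p = 2.05e-11, a 3.15-fold rise), 1.40 ± 0.06 for Id2 (adjusted p = 3.88e-13, 2.64-fold) and 1.84 ± 0.07 for Id3 (adjusted p = 2.58e-13, 3.59-fold). Thus 3 of 4 Id genes rose, where 6.75% of all tested genes were called higher and 12.2% were called in either direction. Among the rises of all tested genes Id3 ranked 5, Id1 7 and Id2 13. Id4 had -0.12 ± 0.07 (adjusted p = 0.285), with a 95% interval from -0.26 to 0.02. Within batch 1 the BMP4 minus untreated difference was 1.52 for Id1, 1.36 for Id2, 2.02 for Id3 and -0.37 for Id4. Within batch 2 it was 1.73, 1.42, 1.75 and 0.0046 for the same genes, so the Id4 value rests on batch 1, which has 1 library per group. The summed level of the 3 cartilage markers (log2) also moved with BMP4: it ran from 15.28 to 15.51 in TNFa+BMP4 and 15.34 to 15.89 in BMP4 libraries, against 14.44 to 14.95 in TNFa and 14.77 to 15.05 in untreated libraries, and the sum of 3 epithelial markers, of which Cdh1 reached the minimum level and Epcam and Krt18 were listed at 0, was 5.17 to 5.35 in BMP4 and 5.55 to 5.66 in untreated libraries. Levels were added on the linear scale, so the cartilage sum rests mostly on Col2a1, at a mean of 14.95 beside 12.09 for Sox9. The part of these markers in the Id values was not tested. The RNA is from whole cultures, in which fewer expressing cells and less RNA per cell cannot be told apart.

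**Figure D1:**
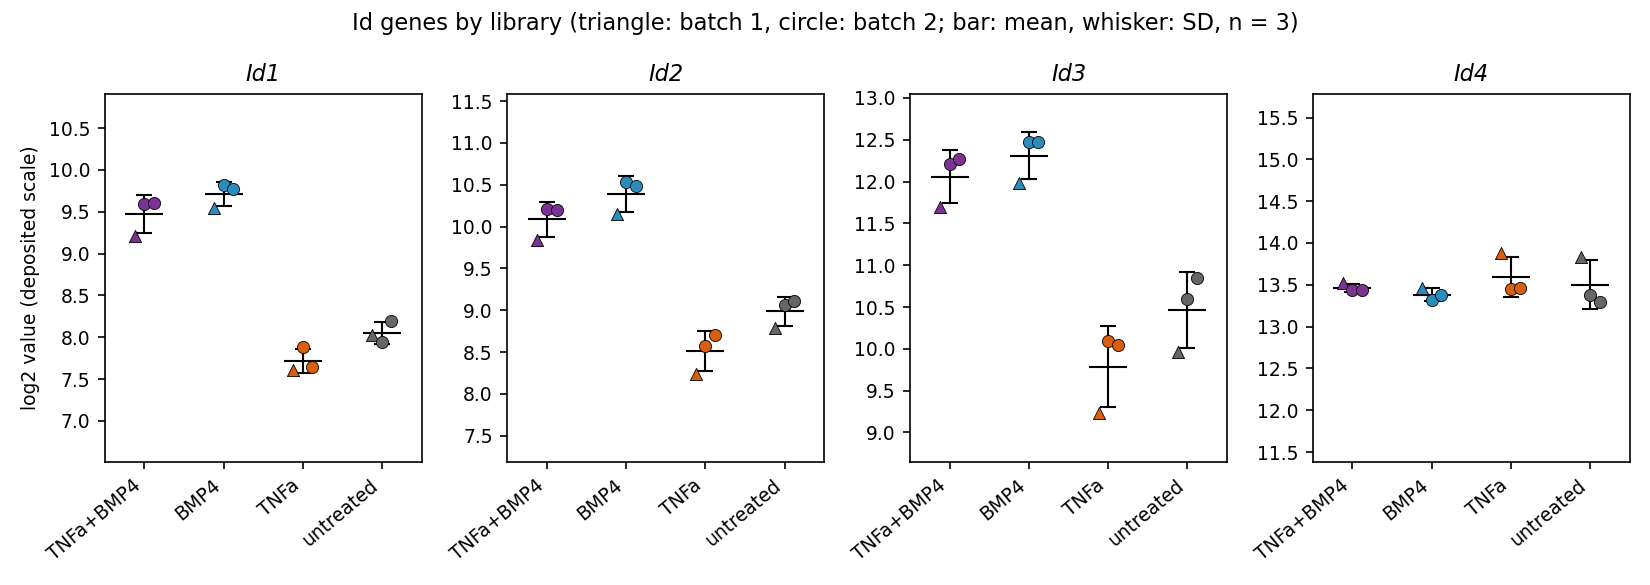
Log2 value of each Id gene (y axis, deposited scale, the same span in every panel) in each library, by group on the x axis. Triangles are batch 1 and circles batch 2, the wide bar is the mean and the whisker the SD of 3 libraries. Libraries given BMP4 stand above all others for Id1, Id2 and Id3, and the groups overlap for Id4.

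The same 3 genes rose when BMP4 was added to cells already given TNFa. Id3 had 11.70, 12.21 and 12.27 in TNFa+BMP4 libraries, against 9.23, 10.09 and 10.04 in TNFa libraries. Id1 had 9.21, 9.60 and 9.61 in TNFa+BMP4 libraries, against 7.61, 7.88 and 7.64 in TNFa libraries. Id2 had 9.84, 10.21 and 10.20 in TNFa+BMP4 libraries, against 8.24, 8.57 and 8.71 in TNFa libraries. None of these groups overlapped. The limma effects of TNFa+BMP4 minus TNFa were 2.27 ± 0.07 for Id3 (adjusted p = 5.65e-15), 1.76 ± 0.08 for Id1 (adjusted p = 6.26e-12) and 1.58 ± 0.06 for Id2 (adjusted p = 7.73e-14). Id3 ranked 2 among all rises, Id1 4 and Id2 9, and 5.47% of tested genes were called higher and 11.7% in either direction. Id4 had -0.13 ± 0.07 (adjusted p = 0.236), a value of -0.35 within batch 1 and -0.02 within batch 2. Over both backgrounds the 6 libraries with BMP4 lay above the 6 without it for Id1, Id2 and Id3, with gaps of 1.02, 0.73 and 0.86 log2 between the closest libraries. Such a separation upward was seen for 1.97% of tested genes. Marker sums (log2) also differed between TNFa+BMP4 and TNFa libraries. The sum of 4 endothelial markers was 5.51 to 5.68 in TNFa+BMP4 and 5.19 to 5.43 in TNFa libraries. The sum of the epithelial markers was 4.90 to 5.21 in TNFa+BMP4 and 5.24 to 5.44 in TNFa libraries. Their part in the Id values was not tested.

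Against untreated cells, cells given both factors had 1.42 ± 0.08 for Id1, 1.10 ± 0.06 for Id2 and 1.60 ± 0.07 for Id3, with limma adjusted p of 3.75e-11, 5.4e-12 and 2.93e-13. These 3 of 4 genes rose where 16.8% of tested genes were called higher and 31.2% in either direction, and they ranked 47, 88 and 36 among the rises. Id4 had -0.04 ± 0.07 (adjusted p = 0.712), and its sign differed between batches, at -0.31 in batch 1 and 0.10 in batch 2. The summed level of the 4 endothelial markers, of which Pecam1 reached the minimum, was 5.51 to 5.68 in TNFa+BMP4 and 5.20 to 5.48 in untreated libraries. That of the epithelial markers was 4.90 to 5.21 in TNFa+BMP4 and 5.55 to 5.66 in untreated libraries. The sum of 3 fibroblast and mesenchyme markers, mostly Col3a1, was 14.11 to 14.14 in TNFa+BMP4 and 14.29 to 14.34 in untreated libraries. The part of these markers was not tested.

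TNFa alone lowered Id1, Id2 and Id3. Id3 had 9.23, 10.09 and 10.04 in TNFa libraries, against 9.96, 10.59 and 10.84 in untreated libraries. Across batches the Id3 groups overlapped, but each TNFa library lay below each untreated library of its own batch. For Id4, which was not called, the TNFa library was the higher one in all 5 within-batch pairs. This ordering therefore does not set called genes apart, and its share over all tested genes was not computed. Id2 had 8.24, 8.57 and 8.71 in TNFa libraries, against 8.78, 9.06 and 9.11 in untreated libraries, and Id1 had 7.61, 7.88 and 7.64 in TNFa libraries, against 8.02, 7.94 and 8.20 in untreated libraries. Neither of these overlapped, which held downward for 7.5% of tested genes. By limma Id3 fell by 0.68 ± 0.07 (adjusted p = 2.72e-07), Id2 by 0.48 ± 0.06 (adjusted p = 2.28e-06) and Id1 by 0.34 ± 0.08 (adjusted p = 0.00623). That is 3 of 4 genes lower, against 6.32% of all tested genes, with 15.5% called in either direction. Id3 ranked 25 among all decreases, Id2 97 and Id1 252. Within batches 1 and 2 the TNFa minus untreated differences were -0.72 and -0.65 for Id3, -0.54 and -0.44 for Id2, and -0.41 and -0.31 for Id1. The Id1 call was lost without untreated replicate 1 (-0.27, adjusted p = 0.0636) and without TNFa replicate 3 (-0.27, adjusted p = 0.0575). Summed marker levels (log2) also moved with TNFa: the 3 fibroblast and mesenchyme markers, all above the minimum level, ran from 14.03 to 14.20 in TNFa and 14.29 to 14.34 in untreated libraries, and the epithelial markers from 5.24 to 5.44 in TNFa and 5.55 to 5.66 in untreated libraries. The fibroblast and mesenchyme sum rests mostly on Col3a1, at a mean of 13.95 beside 11.34 for Thy1 and 9.20 for Pdgfra. It does not show that the 3 markers moved together. The part of these sums in the Id values was not tested. Id4 had 13.88, 13.45 and 13.46 in TNFa libraries, against 13.83, 13.38 and 13.30 in untreated libraries, a difference of 0.09 ± 0.07 (adjusted p = 0.424; 95% interval -0.05 to 0.24).

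Among cells given BMP4, those that also had TNFa were lower in Id2 and Id3. TNFa+BMP4 minus BMP4 was -0.30 ± 0.06 for Id2 (limma adjusted p = 6.04e-04) and -0.25 ± 0.07 for Id3 (adjusted p = 0.0169), so both fell, and -0.24 ± 0.08 for Id1, which missed the threshold (adjusted p = 0.0583). Of the tested genes 7.41% were called lower and 16.2% in either direction, so 2 of 4 Id genes fell. Within batches 1 and 2 the differences were -0.30 and -0.30 for Id2, -0.28 and -0.23 for Id3, and -0.33 and -0.19 for Id1. Across batches the groups overlapped for each of these 3 genes. In all 5 within-batch pairs of libraries the TNFa+BMP4 library was the lower one for each of them. For Id4, which was not called, it was the higher one in all 5 pairs, so this count does not set called genes apart. The fibroblast and mesenchyme sum, mostly Col3a1, was 14.11 to 14.14 in TNFa+BMP4 and 14.23 to 14.35 in BMP4 libraries, and its part was not tested. Id1 was called without untreated replicate 1 (adjusted p = 0.0401) or untreated replicate 2 (adjusted p = 0.0333). The Id3 call was lost without BMP4 replicate 1 (-0.17, adjusted p = 0.117), without TNFa+BMP4 replicate 2 (-0.21, adjusted p = 0.0924) and without TNFa+BMP4 replicate 3 (-0.25, adjusted p = 0.0552). Id4 had 13.52, 13.44 and 13.44 in TNFa+BMP4 libraries, against 13.46, 13.32 and 13.37 in BMP4 libraries, a difference of 0.08 ± 0.07 (adjusted p = 0.483). In the authors' deposited table TNFa+BMP4 minus BMP4 is -0.27 for Id1 with an adjusted p-value of 0.0173 (12.2% of the tested genes pass 0.05 there), and -0.34, -0.26 and 0.09 for Id2, Id3 and Id4. For Id4 the authors' deposited table has 1 comparison with an adjusted p-value under 0.05, BMP4 minus TNFa, which was not fitted here: its log2 fold change is -0.23 (adjusted p-value 0.00725). The share of all tested genes that pass in that comparison was not computed, so the Id4 value cannot be set beside it.

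**Figure D2:**
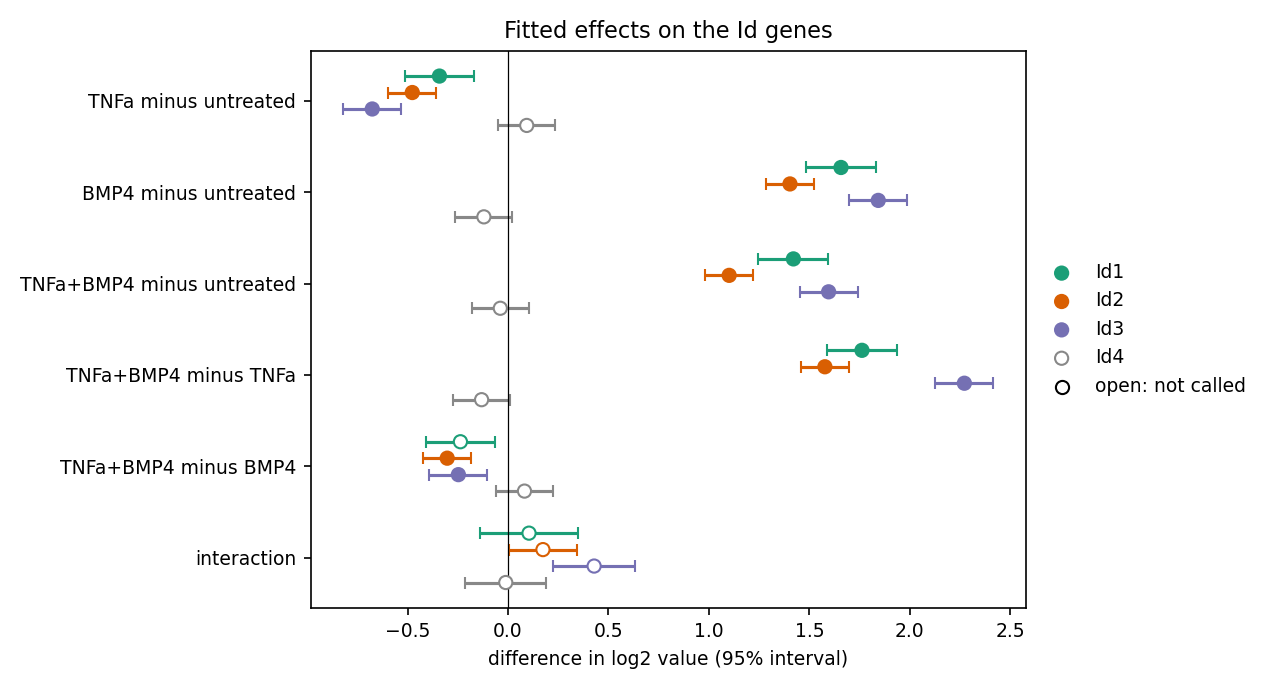
Batch-adjusted difference in log2 value (x axis) with its 95% interval for each Id gene in each comparison and for the interaction (y axis). Filled points were called at adjusted p under 0.05 and open points were not. Id1, Id2 and Id3 lie between 1.10 and 2.27 in the 3 comparisons that add BMP4 and below 0 in the 2 that add TNFa, while every Id4 interval includes 0.

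Whether the response to TNFa depended on BMP4 was tested as an interaction: TNFa+BMP4 minus BMP4, less TNFa minus untreated. No Id gene passed. Id3 had 0.43 ± 0.10 (limma unadjusted p = 0.000294, adjusted p = 0.304), which ranked 10 from the top of 11765 genes, with 0.44 within batch 1 and 0.42 within batch 2. A fit of batch 2 alone called Id3 (adjusted p = 0.00758), as did the fit without BMP4 replicate 1 (0.50, adjusted p = 0.0431), and the other fits that left out a library did not. Id2 had 0.17 ± 0.08 (adjusted p = 0.993), Id1 0.10 ± 0.12 (adjusted p = 0.998) and Id4 -0.01 ± 0.10. In all 2 genes were called in this contrast, or 0.017% of those tested, and 560 had an unadjusted p under 0.05. In the authors' deposited table the TNFa difference of Id3 is -0.76 without BMP4 and -0.26 with it.

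**Figure D3:**
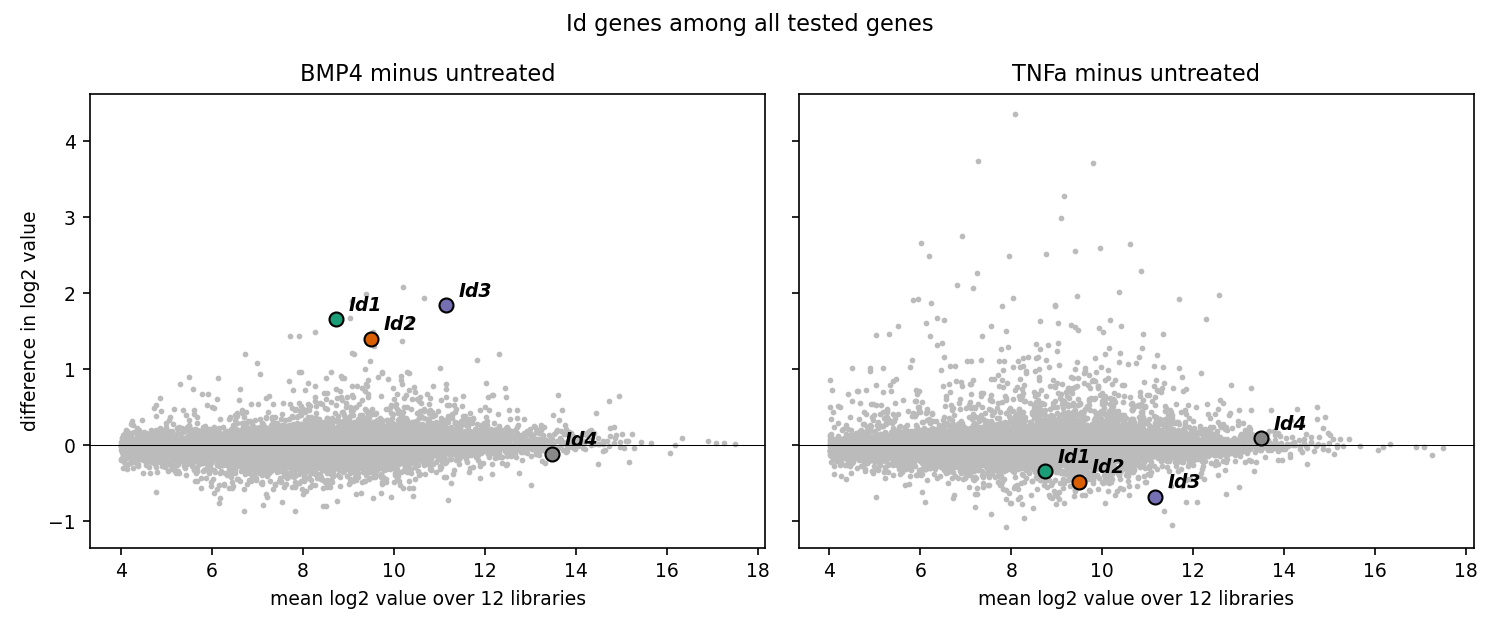
Difference in log2 value (y axis) against mean log2 value over 12 libraries (x axis) for all tested genes in grey and the Id genes in colour, for BMP4 minus untreated on the left and TNFa minus untreated on the right. Id3, Id1 and Id2 are among the 13 highest points on the left at 1.84, 1.66 and 1.40, and on the right Id3 is near the lower edge at -0.68.

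The 4 genes did not respond alike. The difference between 2 Id genes was taken within each library, so that scaling between libraries drops out, and compared between the 6 libraries with a factor and the 6 without it by a two-sided exact permutation test within strata of batch and the other factor (144 arrangements, smallest possible p = 0.0139), adjusted over 12 tests. Id4 minus Id3 was 1.24 ± 0.37 in libraries with BMP4 and 3.42 ± 0.78 in libraries without it (log2, SD, n = 6 each), a response 2.18 lower for Id4 (exact p = 0.0139, adjusted p = 0.0185). The corresponding differences for Id4 were -1.84 against Id1 and -1.62 against Id2, with the same p-values. Among the induced genes Id3 minus Id2 was 1.95 ± 0.09 with BMP4 and 1.38 ± 0.27 without it, so that Id3 responded more than Id2 by 0.57. Id3 also exceeded Id1 by 0.35, and Id2 fell short of Id1 by 0.22, each with exact p = 0.0139 and adjusted p = 0.0185. These values average the backgrounds without and with TNFa, in which the differences were not of one size. The limma BMP4 effects of Id1, Id2 and Id3 were 1.66, 1.40 and 1.84 without TNFa. With TNFa they were 1.76, 1.58 and 2.27. Within batch 2 and without TNFa, Id1 and Id3 had 1.73 and 1.75. The difference between Id2 and Id1 lost its call without BMP4 replicate 3, TNFa+BMP4 replicate 2 or TNFa+BMP4 replicate 3 (-0.21 each, exact test, adjusted p = 0.0556 each). To TNFa, Id4 differed from Id1, Id2 and Id3 by 0.38, 0.48 and 0.55 (each exact p = 0.0139, adjusted p = 0.0185). Differences among Id1, Id2 and Id3 in the TNFa response were -0.10 for Id2 minus Id1 (exact p = 0.194), -0.17 for Id3 minus Id1 (exact p = 0.0694) and -0.07 for Id3 minus Id2 (exact p = 0.292). They likewise average the backgrounds without and with BMP4. The limma TNFa effects of Id1, Id2 and Id3 were -0.34, -0.48 and -0.68 without BMP4, and -0.24, -0.30 and -0.25 with it.

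These sizes depend on the scale. Against the fold changes in the authors' deposited table, deposited differences are compressed at low levels. BMP4 minus untreated differences were regressed on those fold changes, through the origin and only over genes above a minimum absolute authors' fold change. The slope was 0.83 over 136 genes at mean log2 values from 8 to 10, where Id1 (8.74) and Id2 (9.49) lie. It was 0.91 over 61 genes from 10 to 12, where Id3 (11.15) lies. In the authors' deposited table the log2 fold change of BMP4 minus untreated is 1.99 for Id1, 1.60 for Id2, 1.98 for Id3 and -0.13 for Id4, so the order of Id3 and Id1 is not kept there. For TNFa+BMP4 minus TNFa the same table gives 2.19 for Id1, 1.84 for Id2 and 2.47 for Id3, and for TNFa minus untreated -0.47, -0.58 and -0.76.

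Levels of different genes were set side by side after division by transcript length, as log2 value per kb. In untreated cells the order was Id4 (11.52 ± 0.29), Id3 (10.54 ± 0.46), Id2 (8.64 ± 0.18) and Id1 (7.84 ± 0.13; mean ± SD, n = 3), and in each group neighbours in the order were further apart than the SD of either. In BMP4 cells Id3 came first at 12.38 ± 0.28, followed by Id4 at 11.40 ± 0.07, Id2 at 10.05 ± 0.21 and Id1 at 9.50 ± 0.15. In TNFa+BMP4 cells the order was again Id3 (12.14 ± 0.32), Id4 (11.48 ± 0.05), Id2 (9.74 ± 0.21) and Id1 (9.26 ± 0.22), and in TNFa cells Id4 (11.61 ± 0.24), Id3 (9.87 ± 0.48), Id2 (8.17 ± 0.24) and Id1 (7.50 ± 0.15). Id3 minus Id4 per kb was 0.24, 0.83 and 0.90 in TNFa+BMP4 libraries and 0.58, 1.22 and 1.16 in BMP4 libraries, against -2.58, -1.30 and -1.36 in TNFa libraries and -1.81, -0.73 and -0.39 in untreated libraries. Id3 was thus above Id4 in all 6 libraries with BMP4 and below it in all 6 without. Among the tested genes, Id4 was higher per kb than 97.8%, Id3 than 97.3%, Id2 than 85.4% and Id1 than 77.0%.

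Summed over the family on the linear scale, the Id level per kb (log2 of the sum) was 13.11 ± 0.18 in TNFa+BMP4, 13.27 ± 0.16 in BMP4, 12.17 ± 0.07 in TNFa and 12.33 ± 0.05 in untreated libraries (SD, n = 3), given as a description. Id4 made up 38.5%, 29.9% and 29.1% of the sum in TNFa+BMP4 libraries, 32.9%, 24.5% and 25.4% in BMP4 libraries, 78.4%, 63.1% and 63.9% in TNFa libraries and 69.4%, 54.3% and 49.2% in untreated libraries. Id3 made up 45.4% to 54.3% in TNFa+BMP4, 49.3% to 56.9% in BMP4, 13.1% to 25.7% in TNFa and 19.8% to 37.4% in untreated libraries. The share of Id4 was at most 38.5% in the libraries with BMP4 and at least 49.2% in those without it. These sums take the deposited values as plain log2. Compression differs between members: the BMP4 minus untreated slope was 0.83 at levels from 8 to 10 and 0.94 from 12 up, where Id4 lies. The slope from 12 up rests on 11 genes. The shares are therefore approximate.

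**Figure D4:**
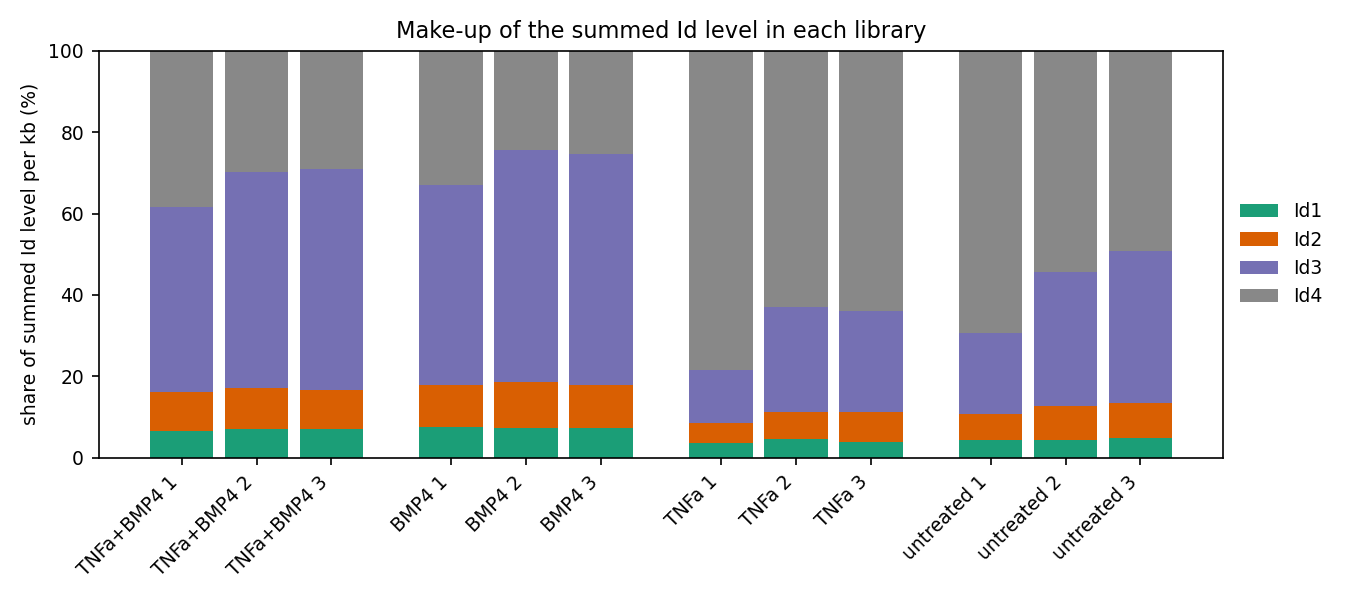
Share of each Id gene (y axis, percent) in the summed linear Id level per kb of each library (x axis, group and replicate). Id3 is the largest part of every bar with BMP4 and Id4 of every bar without it, and the replicate 1 bars, from batch 1, have the largest Id4 part of each group.

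Reference sequences are shown for the promoters of 2 induced genes, Id2 and Id3, and of Id4, which limma called in none of the comparisons above: the 250 bases before the transcription start, on the transcribed strand, from RefSeq on build GRCm38.p6 (mm10), where 3 of the 4 genes had an entry. Capitals mark GGCGCC, a GC-rich box known to bind BMP-activated Smads, and CAGAC, a Smad box, on either strand.
Id2 (chr12:25096093-25096342, minus strand): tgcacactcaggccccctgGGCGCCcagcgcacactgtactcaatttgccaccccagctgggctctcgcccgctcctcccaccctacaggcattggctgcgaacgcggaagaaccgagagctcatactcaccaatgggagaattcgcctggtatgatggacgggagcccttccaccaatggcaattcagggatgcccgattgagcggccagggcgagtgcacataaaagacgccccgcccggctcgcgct
Id3 (chr4:136143572-136143821, plus strand): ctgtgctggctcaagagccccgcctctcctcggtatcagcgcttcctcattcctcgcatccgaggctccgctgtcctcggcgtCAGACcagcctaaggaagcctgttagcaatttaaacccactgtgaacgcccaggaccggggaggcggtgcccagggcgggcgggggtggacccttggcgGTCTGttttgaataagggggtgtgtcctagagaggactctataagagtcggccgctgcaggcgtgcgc
Id4 (chr13:48260866-48261115, plus strand): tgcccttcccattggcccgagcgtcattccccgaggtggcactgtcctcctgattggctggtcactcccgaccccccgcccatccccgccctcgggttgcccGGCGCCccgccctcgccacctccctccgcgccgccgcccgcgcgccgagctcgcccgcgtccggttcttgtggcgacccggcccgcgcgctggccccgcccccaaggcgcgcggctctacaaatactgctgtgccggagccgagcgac
GGCGCC stood once in the Id2 window, once in the Id4 window and not in that of Id3, and 9.59% of 32851 promoter windows of that length hold it. CAGAC stood at 2 places in the Id3 window and not in the others, against 42.2% of all windows. The palindrome GTCTAGAC (0.167% of all windows) and the kappaB consensus (7.25%), the site bound by NF-kB, were in none of these 3 windows, and the E-box CANNTG was in that of Id2, as in 66.2% of all; these motifs share no bases in the windows shown. GC content was 62.8% for Id2 and Id3 and 75.6% for Id4, with a median of 52.4% over all windows. Both an induced gene and Id4 thus held GGCGCC in this window; the matches are letters and not measured sites.

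The partners of Id proteins were compared in the same way. Of 3 E-protein genes 0 were called in BMP4 minus untreated, against 12.2% of all tested genes. There 1 (Tcf3, lower) was called after quantile normalization and without untreated replicate 2. Tcf3 had -0.12 ± 0.05, Tcf4 -0.10 ± 0.06 and Tcf12 0.07 ± 0.05. With TNFa 1 of 3 was called, where 15.5% of all tested genes were called and 6.32% were lower: Tcf4 fell by 0.35 ± 0.06 (limma adjusted p = 8.92e-05), while Tcf3 had -0.03 ± 0.05 and Tcf12 0.00 ± 0.05. Tcf4 was at 10.45, 10.26 and 10.33 in TNFa+BMP4 libraries, 11.08, 10.72 and 10.73 in BMP4 libraries, 10.76, 10.57 and 10.46 in TNFa libraries and 11.20, 10.79 and 10.84 in untreated libraries. In the TNFa+BMP4 minus BMP4 comparison it fell by 0.50 ± 0.06. Tcf4 was also lower when BMP4 was added to TNFa, with -0.25 ± 0.06 in TNFa+BMP4 minus TNFa (limma adjusted p = 0.00415). It was the 1 gene of 3 called there, where 11.7% of all tested genes were called. The summed Id level per kb over the summed E-protein level per kb was 2.67 ± 0.15 in TNFa+BMP4, 2.75 ± 0.24 in BMP4, 1.65 ± 0.08 in TNFa and 1.74 ± 0.03 in untreated libraries (log2 ratio, SD, n = 3), a description of RNA only. This ratio has the same limit of scale as the Id sums.

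Of 17 other bHLH genes, which include class II partners, HES or HEY repressors, and Bhlhe40 and Bhlhe41, 7 were tested. With BMP4 3 were called higher and 1 lower, against 6.75% and 5.47% of all tested genes, led by Atoh8 (1.99 ± 0.17) and the Notch effector Hes1 (0.88 ± 0.11); leaving out replicate 1 of either group, or BMP4 replicate 2, left 2 called. With TNFa 2 were higher and 2 lower, where 9.16% of all tested genes were called higher, among them the tendon factor Scx, which fell by 0.64 ± 0.09, and Bhlhe40, which rose by 0.63 ± 0.12; Bhlhe40 had 0.39 without untreated replicate 1, still called, and 2 of the list were called without TNFa replicate 1. The list medians were -0.09 for BMP4 and 0.23 for TNFa, beside 0.00 and -0.01 over all tested genes.

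Upstream of the Id genes, 10 of 12 fixed genes for BMP receptors, BMP Smads and Smad4 were tested. With BMP4 4 rose and 1 fell (median 0.12), where 6.75% of all tested genes were called higher and 5.47% lower. Smad9, a BMP-activated Smad, rose by 1.44 ± 0.11 and the type II receptor gene Bmpr2 by 0.63 ± 0.06, with Acvr1 and Smad1 also higher and Acvr2b lower. Leaving out replicate 1 of either group, or BMP4 replicate 2, left 3 of the list called. With TNFa 1 of 10 was called, no larger a share than the 15.5% of all tested genes: Smad9 fell by 0.48 ± 0.11 (limma adjusted p = 0.00356; list median -0.07). Of the feedback and antagonist genes 15 of 16 were tested. BMP4 raised 6 and lowered 2 of them (median 0.15), against the same 6.75% and 5.47%, led by the inhibitory Smads Smad7 (1.90 ± 0.11) and Smad6 (1.30 ± 0.10), and the secreted antagonist gene Nog was among the rises. TNFa raised 5 and lowered 3 (median -0.03), where 9.16% of all tested genes were called higher and 6.32% lower, led by Skil, a Smad corepressor (0.62 ± 0.13), and Fstl1 (0.48 ± 0.09). Without untreated replicate 1 these values were 0.33 for Skil and 0.32 for Fstl1, both still called, and Skil lost its call under robust moderation (adjusted p = 0.0667). With no minimum level 5 of the list were called. Smad6 fell with TNFa as did Id1, Id2 and Id3, while Smad7 rose.

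Beside the Id genes, 16 of 17 other known BMP-Smad targets were tested. Over all tested genes 6.75% were called higher and 5.47% lower with BMP4, and 9.16% higher and 6.32% lower with TNFa, and the counts of this and the next 3 lists stand beside those shares. With BMP4 12 rose and 1 fell (median 0.81), led by Snai1, a transcriptional repressor (2.08 ± 0.08), and Atoh8. With TNFa 1 rose and 3 fell (median -0.14): the AP-1 gene Junb rose by 2.02 ± 0.09, and the osteoblast factor Runx2 fell by 0.60 ± 0.07. This list was compiled with earlier results of these libraries known. Of 12 reported regulators of Id transcription 3 rose and 1 fell with BMP4 (median 0.05), led by Klf10 (0.81 ± 0.15) and Egr1 (0.45 ± 0.07). Klf10 had 0.51 without untreated replicate 1, still called, and lost its call under robust moderation (adjusted p = 0.0675). In the same list 6 rose with TNFa (median 0.34), led by Smad3 (0.85 ± 0.05) and Nfkb1 (0.83 ± 0.08). Of 9 cell-cycle genes under E proteins and Id proteins 6 were tested. BMP4 lowered 2 of them, Ccnd1 by 0.21 ± 0.06 and Cdkn1a by 0.18 ± 0.05 (median -0.16), and neither was called without untreated replicate 1 or BMP4 replicate 2, while 1 was without untreated replicate 3 or BMP4 replicate 1. TNFa raised Ccnd1 by 0.76 ± 0.06 and Cdkn1a and lowered Cdkn1b by 0.31 ± 0.06 (median -0.02). Of 9 NF-kB feedback genes, a list also compiled with earlier results known, 9 rose with TNFa (median 1.93), led by Nfkbie (3.71 ± 0.05) and Nfkbia (2.60 ± 0.13). With BMP4 2 of these were higher and 1 lower (median 0.02), but 0 were called without untreated replicate 1, and 1 when untreated replicate 3 or either of BMP4 replicates 1 and 2 was left out.

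**Figure D5:**
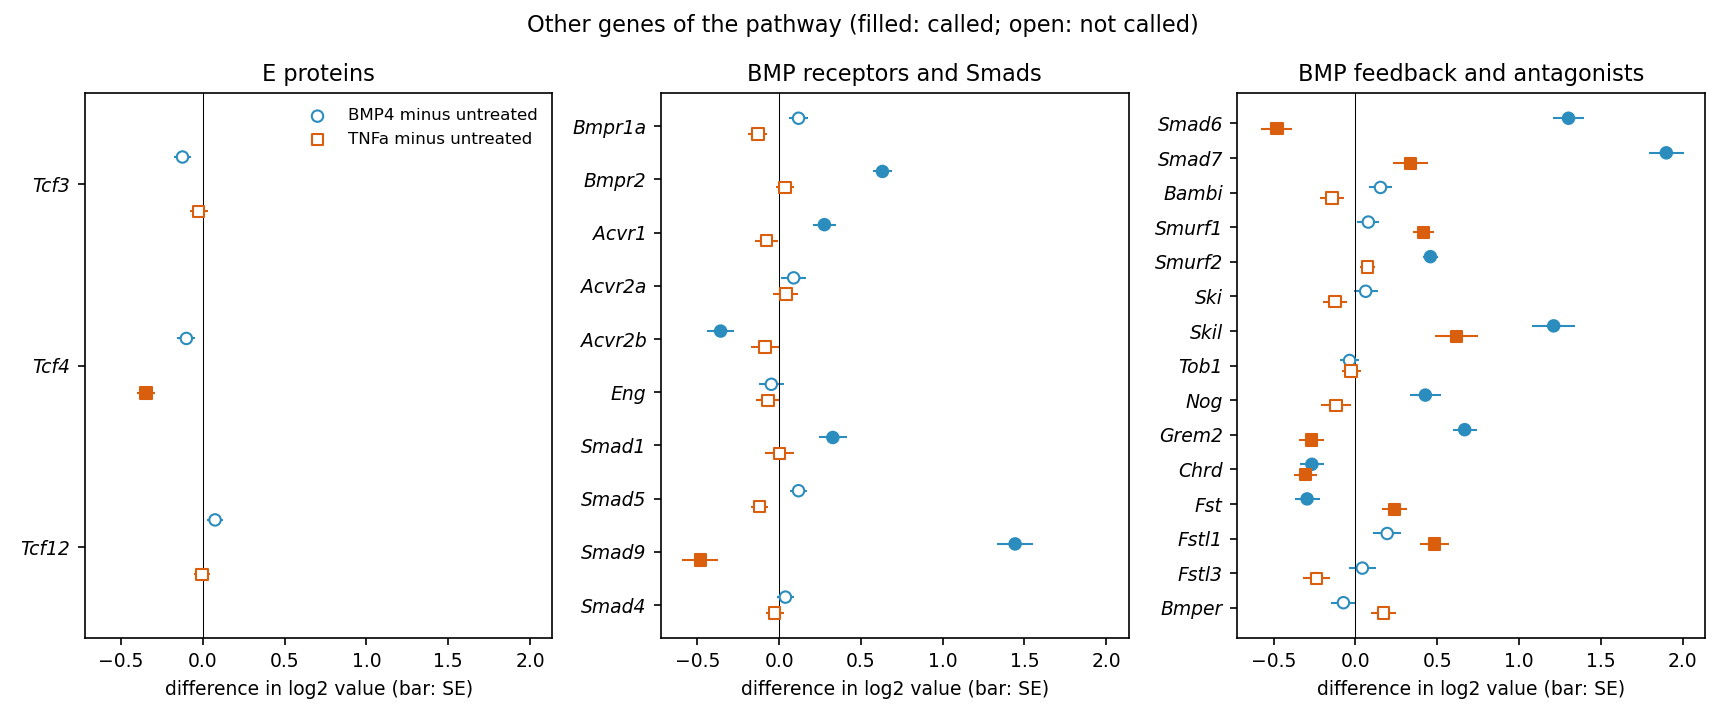
Difference in log2 value with its SE (x axis) for the tested E-protein genes, BMP receptors and Smads, and BMP feedback genes and antagonists (y axis), for BMP4 minus untreated (blue circles) and TNFa minus untreated (orange squares). Filled symbols were called. Smad7, Smad9 and Smad6 lie furthest to the right at 1.90, 1.44 and 1.30 with BMP4, and Tcf4 is the 1 filled symbol among the E proteins, at -0.35 with TNFa.

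The genes most like each Id gene were ranked by Pearson's r over the 12 libraries after subtraction of batch means, as a description; the libraries fall into a set with BMP4 and one without, which sets most of r for the induced genes. For Id1 the first 5 were Id2 and Id3 (r = 0.989 and 0.987), Dlx1as (0.985), Dlx1 (0.984) and Dlx2 (0.983), where Dlx1 and Dlx2 encode homeobox factors and reads of Dlx1 and its antisense Dlx1as may not be told apart. For Id2 they were Id3 (0.994), Kcnf1 (0.990), Id1, Tmem151a (0.982) and Smad9 (0.982). For Id3 they were Id2, Smad6 (0.994), Smad9 (0.989), Id1 and Dok4 (0.984). Id1, Id2 and Id3 were thus in each other's first 5, in the same libraries that gave their shared responses to BMP4 and TNFa above. For Id4 they were Lbh (0.929), Cdca7 (0.922), Sowahc (0.918), Hells (0.911) and Fignl1 (0.906), and r of Id4 with Id1, Id2 and Id3 was -0.56, -0.62 and -0.66.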

How the data were processed

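The 12 libraries of poly(A) RNA were processed with Trim Galore, HISAT2 and HOMER on mm10, per the submitters' processing notes; versions are not given in the sources used here. HOMER summed reads over exons, condensed to 1 entry per gene, and compared groups with a batch factor, per the file headers. The library columns hold log2 values deposited by the authors; their transformation is not stated, batch has not been removed from them, and no counts were used here. For each pair of groups the authors deposited a log2 fold change, a p-value and an adjusted p-value. Batch numbers follow the labels; the header swaps them.

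Of 25124 entries, 7423 are listed at 0 in every library. Those reaching an average log2 value of 4 (11765) entered a limma 3.58.1 model in R 4.3.3 with 4 groups and batch, 7 residual degrees of freedom and trended variance moderation. The threshold was 0.05 after Benjamini-Hochberg adjustment. The procedure was tested on simulated data. Settings varied were scaling, minimum level, variance moderation, the batch term and leaving out libraries. Members, lists and tests were chosen with earlier results of these data known. Beside the Id genes and the E proteins, the text names the 2 called genes with the largest change per list and the 5 genes most correlated with each Id gene; other list members, named to spell out small counts, were chosen after their values were seen.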

Additional observations from a re-analysis of the deposited data

How the results depend on the processing

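The rises of Id1, Id2 and Id3 with BMP4, in all 3 comparisons, stayed called under every setting run. Without the batch term the calls for TNFa minus untreated were lost (-0.34, -0.48 and -0.68 for Id1, Id2 and Id3; limma adjusted p = 0.284, 0.179 and 0.359), as were those for TNFa+BMP4 minus BMP4 (-0.30 for Id2 and -0.25 for Id3; 0.523 and 0.938), and genes called numbered 383 for TNFa, 114 for BMP4 and 869 for TNFa+BMP4 against untreated, 105 for TNFa+BMP4 minus TNFa, 345 for TNFa+BMP4 minus BMP4 and 0 for the interaction. Id3 in TNFa+BMP4 minus BMP4 (-0.25) also lost its call with no minimum level (0.0687) and no variance trend (0.0533). Id1 there gained a call with quantile normalization (-0.26), median centring (-0.25), robust moderation (-0.24) and only the compared groups (-0.24), with adjusted p of 0.0299, 0.0436, 0.0482 and 0.00673, and without untreated replicate 1 or 2 (0.0401 and 0.0333). In batch 2 alone Id4 turned to 0.0046 for BMP4 and 0.0984 for TNFa+BMP4 against untreated, Tcf3 and Tcf12 to 0.0244 and 0.0188 for TNFa, and the Id3 interaction (0.42) was called. Batch 2 alone cannot reach the threshold in the exact tests between Id genes (adjusted p = 0.0741); its differences in BMP4 response were -0.29, 0.18 and -1.79 for Id2, Id3 and Id4 minus Id1, 0.47 and -1.50 for Id3 and Id4 minus Id2, and -1.97 for Id4 minus Id3, and in TNFa response 0.35, 0.48 and 0.55 for Id4 minus Id1, Id2 and Id3. TNFa+BMP4 minus TNFa had 906 called genes with no minimum level and 2096 with only the compared groups. The interaction had 1 with quantile normalization, robust moderation or the replicate block, 0 with no minimum level and 15 in batch 2 alone. Leaving out 1 library gave -0.44 to -0.27 for Id1 with TNFa, -0.098 to 0.057 for Id4 in TNFa+BMP4 minus untreated, -0.30 to -0.17 for Id3 and -0.27 to -0.16 for Id1 in TNFa+BMP4 minus BMP4, -0.11 to 0.076 and 0.34 to 0.50 for the Id4 and Id3 interactions, -0.26 to -0.17 for Id2 minus Id1 in BMP4 response (call lost in 3 of 12), -0.077 to 0.012 for Tcf3 and -0.020 to 0.024 for Tcf12 with TNFa, and 756 to 1642 called genes for BMP4, 752 to 1726 for TNFa+BMP4 minus TNFa and 0 to 7 for the interaction. The cause of these changes was not tested. Beyond batch, the labels link replicates of different groups only by number. The difference between replicates 2 and 3 correlated between groups at 0.0199 to 0.1638, which does not settle whether they were paired. The replicate block changed no Id call. Against the authors' fold changes, the deposited differences are compressed at low levels.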
